A study of Homo sapiens with 3 samples.

Results

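Genes of the endoplasmic reticulum (ER) folding machinery and of the unfolded protein response were followed in undifferentiated khES3 cells, a human embryonic stem (ES) cell line, after leucine or lysine was taken out of the medium. The set was a list of 37 gene symbols grouped by known role: ER chaperones, disulfide enzymes, co-chaperones, ER-associated degradation (ERAD) factors, stress sensors with their transcription factors, and parts of the translocation channel. Of these, 35 had at least 1 probe set that the platform annotation assigns to that gene alone, 88 probe sets in all, out of 19775 such genes and 41091 such probe sets on the array. PDIA5 and SYVN1 share their only probe set with a microRNA gene and were left out.

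There were 3 groups, each with 1 Affymetrix array from 1 line. The first was cultured for 5 hours in complete medium, the second for 5 hours in medium lacking leucine and the third for 5 hours in medium lacking lysine. Human cells cannot make either amino acid and depend on the medium for it. The labels do not describe replicate cultures, and with 1 array per group there is no replicate check and no test between groups, so the values below describe these 3 arrays.

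The ER folds secreted and membrane proteins. When unfolded proteins build up there, 3 sensors respond: ATF6, which is cut in the Golgi and released as a transcription factor; IRE1, encoded by ERN1, which removes an intron from XBP1 mRNA; and PERK, which phosphorylates the initiation factor eIF2 alpha and favours translation of ATF4. ATF6 and spliced XBP1 switch on chaperone and ERAD genes, largely through ER stress response elements in their promoters. ATF4 is also reached without any ER signal, because the kinase GCN2 phosphorylates the same factor when amino acids are short. The comparisons ask how far the chaperone and ERAD arm differed between starved and fed cells, beside the ATF4 arm.

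The promoter stretches that follow show the ER stress response elements that some of these genes hold. They are RefSeq sequence of GRCh38.p14, upstream of the annotated start only, printed 5′ to 3′ on the gene's strand, with motif matches in capitals. Windows of 300 bases (250 before to 50 after a start) were supplied for 34 of the 37 members, 41 windows in all. Motifs were searched on both strands: the ER stress response element (ERSE, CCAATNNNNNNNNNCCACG), its second form (ERSE-II, ATTGGNCCACG), the core of the XBP1-binding unfolded protein response element (UPRE, TGACGTGG), the cAMP response element (TGACGTCA) and the core of the amino acid response element bound by ATF4 (AARE, TGATGNAA). A match on the opposite strand appears as its reverse complement, for instance CGTGG at its left end. The first 3 stretches hold ERSE-II, and their genes include the highest and the lowest of the 13 members with a match, by the differences reported later; the other 4 hold ERSE.
HERPUD1, chr16:56931954-56932047, plus strand, an AARE core and then ERSE-II: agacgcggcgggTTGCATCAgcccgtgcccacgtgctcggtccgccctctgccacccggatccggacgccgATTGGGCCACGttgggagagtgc
SDF2L1, chr22:21642102-21642136, plus strand, ERSE-II: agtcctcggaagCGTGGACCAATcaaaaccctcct
HYOU1, chr11:119057262-119057405, minus strand, ERSE-II at either end, the first overlapping a UPRE core: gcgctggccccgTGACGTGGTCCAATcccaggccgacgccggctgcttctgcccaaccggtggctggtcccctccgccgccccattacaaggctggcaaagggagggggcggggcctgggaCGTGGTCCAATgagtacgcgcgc
HSPA5, chr9:125241379-125241421, minus strand, ERSE: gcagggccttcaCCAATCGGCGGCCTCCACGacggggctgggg
XBP1, chr22:28800591-28800633, minus strand, ERSE: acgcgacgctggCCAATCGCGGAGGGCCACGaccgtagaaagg
CALR, chr19:12938372-12938414, plus strand, ERSE: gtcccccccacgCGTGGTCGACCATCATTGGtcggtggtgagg
HSP90B1, chr12:103930204-103930351, plus strand, ERSE at either end: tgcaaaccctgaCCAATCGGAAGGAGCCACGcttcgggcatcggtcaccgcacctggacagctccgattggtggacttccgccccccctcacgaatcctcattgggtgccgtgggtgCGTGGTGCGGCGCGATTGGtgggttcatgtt

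ERSE lay in 11 of the 41 windows (26.8%), belonging to 9 members: CALR, CANX, CRELD2, ERO1B, HSP90B1, HSPA5, PDIA6, SERP1 and XBP1. Of all 35116 windows of the same length, 27 held it (0.0769%). ERSE-II lay in the windows of HERPUD1, HYOU1 and SDF2L1 (7.32% of member windows, against 0.0541% of all windows). These elements were first described on genes of this family, so their presence here is background, not a result of the arrays. The UPRE core lay in the windows of DNAJC10 and HYOU1 (0.729% of all windows), and in HYOU1 it overlapped ERSE-II. The AARE core lay in the window of HERPUD1 alone among the members (3.62% of all windows), and the cAMP response element lay in no member window (1.85% of all windows). A match is a run of letters and not a measured binding site.

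**Figure D1:**
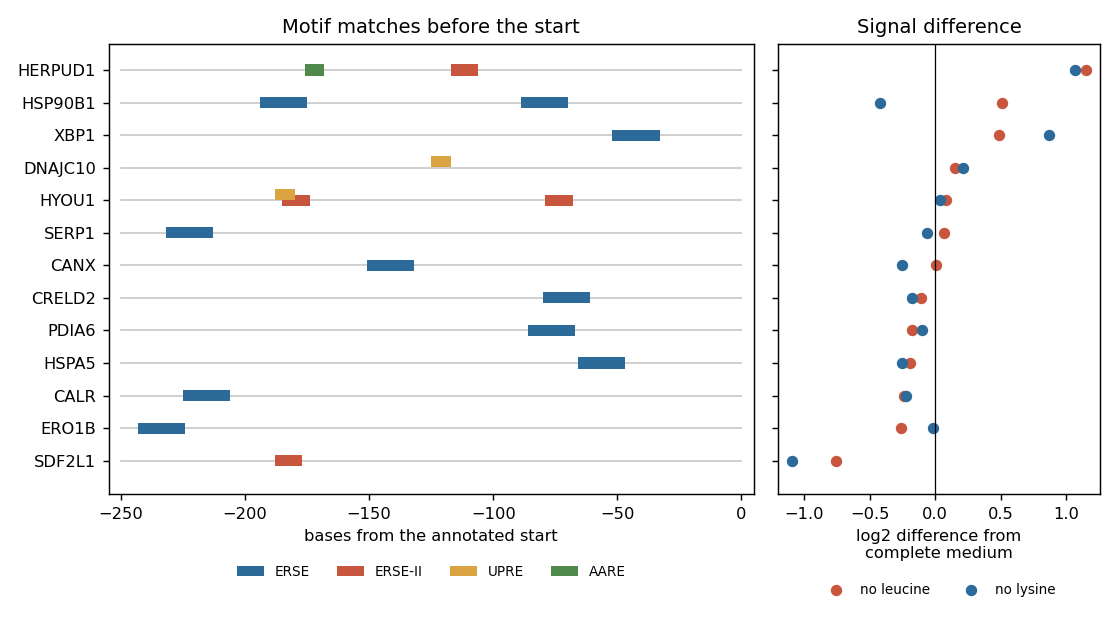
Motif matches in the 250 bases before the annotated start of the 13 members with a match (left; bars to scale, coloured by motif), ordered by the log2 signal difference after leucine removal, which is shown with that after lysine removal (right; 1 array per condition, no error available). The ERSE-II genes include the top and the bottom of the order, with differences of 1.15 for HERPUD1, 0.08 for HYOU1 and -0.76 for SDF2L1 after leucine removal.

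Signals are the authors' MAS5 values on a linear scale. A signal below the array's floor (54.6 in complete medium, 56.7 without leucine, 62.4 without lysine) was set to that floor, and differences are in log2 signal, where 1 is 2-fold and 0.58 is 1.5-fold. Each gene is read by its probe set with the highest mean log2 signal over the 3 arrays, after probe sets under the median of that mean were left out. That filter kept 33 members with 73 probe sets, and it kept 11846 genes in all; it averages all 3 arrays, so a member high in 1 group is kept more easily. ERN1 and CRELD1 did not pass it. The only repeat measure is that between probe sets of the same gene, which share the RNA: over the 22 members with several kept probe sets, the SD of the difference was 0.44 after leucine removal and 0.45 after lysine removal, against 0.43 and 0.52 over 5306 genes. It leaves out the spread between cultures.

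Most of these genes differed little from complete medium on either array, and the few that stood out did so in opposite directions. After leucine removal the median over the 33 members was -0.03 (all kept genes 0.01), with 16 members above 0 and 17 below. That is 48.5% above 0, against 51.4% of kept genes. HERPUD1 and EDEM1, both ERAD genes, were at least 2-fold higher and no member was 2-fold lower; that is 6.06% of members higher, against 2.39% of kept genes higher and 1.24% lower. At 1.5-fold the same pair was higher (8.57% of kept genes), and MANF and SDF2L1 were lower (5.49% of kept genes). Brighter genes pass 1.5-fold less often on these arrays. Of 25 members in the brighter part of the kept genes (5923 genes), HERPUD1 was 1.5-fold higher (4% of members, 3.43% of such genes) and MANF and SDF2L1 were lower (8% of members, 1.49%).

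After lysine removal the median over members was -0.18 (all kept genes -0.00), with 11 members above 0 and 22 below. That is 33.3% above 0, against 49.5% of kept genes. HERPUD1 and EDEM1 were again at least 2-fold higher (3.73% of kept genes) and SDF2L1 was 2-fold lower (1.95%). At 1.5-fold XBP1 joined the higher genes, making 3 of 33, or 9.09% (12.1% of kept genes), and SDF2L1 stayed the only lower member (8.72%). In the brighter part, HERPUD1 and XBP1 were higher (8% of the 25 members, 6.2% of such genes) and SDF2L1 was lower (4% of members, 4.44%). Each of these shares rests on 1 to 3 genes, and none of the 1.5-fold shares of members was above that of all kept genes except the lower one after leucine removal (6.06% against 5.49%). Both comparisons use the same complete-medium array, so their likeness is not independent.

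**Figure D2:**
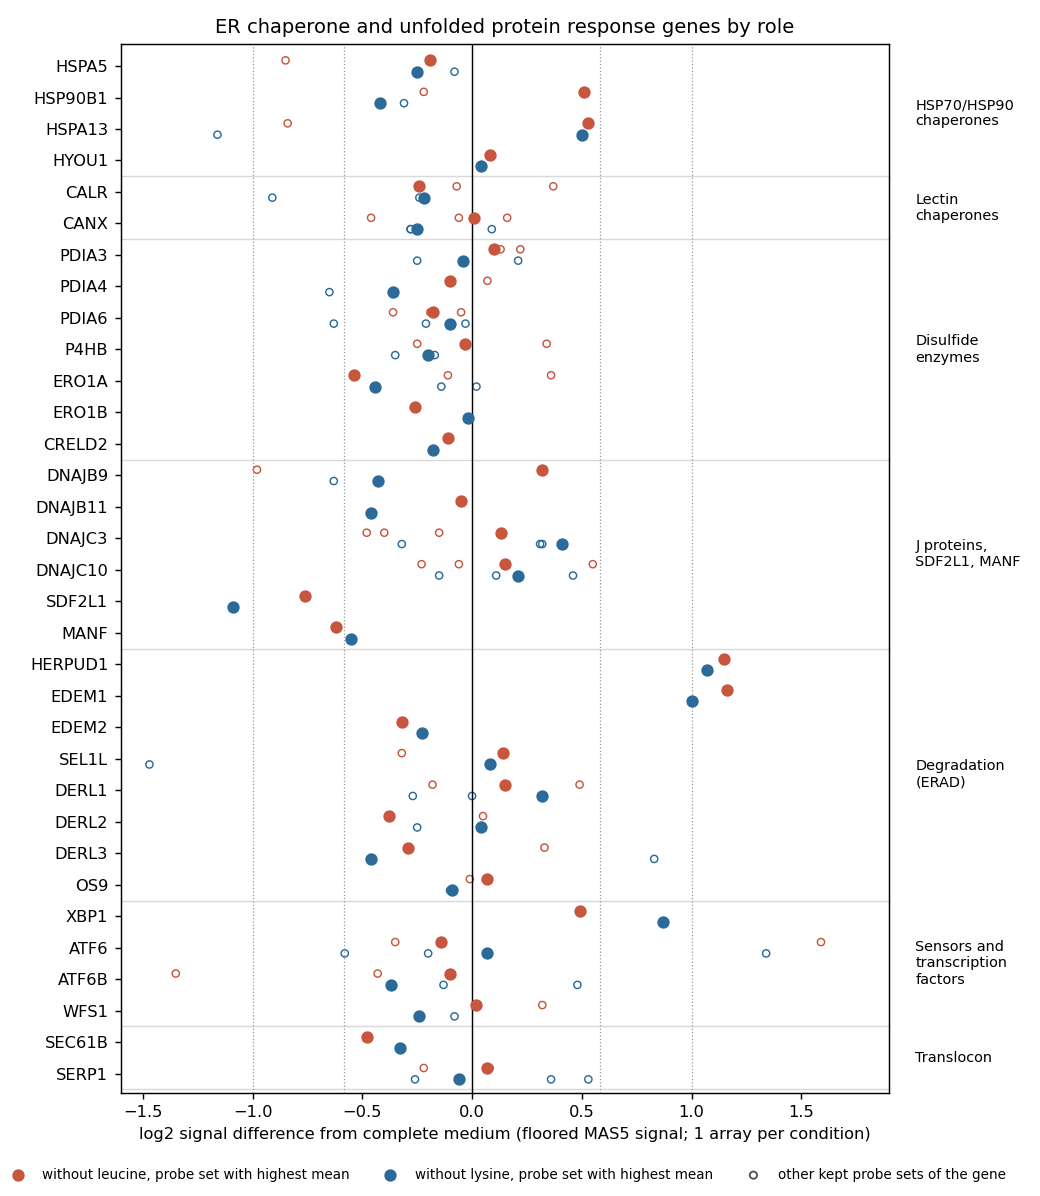
Log2 signal difference from complete medium for the 33 kept members, grouped by role, after leucine (red) and lysine removal (blue), 1 array per condition. Filled points are the probe set with the highest mean, open circles the gene's other kept probe sets, and dotted lines mark 1.5- and 2-fold; HERPUD1 and EDEM1 lie at or past 2-fold on the right in both colours, SDF2L1 lies on the left at -0.76 and -1.09, and most other filled points lie within 1.5-fold.

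ERAD genes held the highest values. HERPUD1 encodes a membrane protein that organises the ERAD complex around the ubiquitin ligase HRD1. Its main probe set read 1381 in complete medium, 3055 without leucine and 2898 without lysine, which is 2.21-fold and 2.10-fold higher. Both starved arrays lay well above the fed one and close to each other, with a difference of 0.08 between them. The other HERPUD1 probe set was below the floor on all 3 arrays (3.10, 6.71 and 17.8) and gives no second reading. The platform marks the main HERPUD1 probe set as shared between transcripts, and without such probe sets HERPUD1 has no value and the 2-fold higher count is 1, EDEM1.

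EDEM1 encodes a mannosidase-like protein that draws misfolded glycoproteins out of the folding cycle. Its single probe set read 273.3 in complete medium, 610.4 without leucine and 547.3 without lysine, or 2.23-fold and 2.00-fold higher. As with HERPUD1, the starved arrays were the 2 high ones. EDEM2, a related mannosidase that makes the first cut in the glycan, did not follow it, at -0.32 after leucine and -0.23 after lysine removal.

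The rest of the ERAD machinery stayed within 1.5-fold on its main probe sets. SEL1L, the scaffold of the HRD1 ligase, differed by 0.14 and 0.08, although a dimmer probe set of it differed by -0.32 and -1.47, the latter from a reading below the floor. OS9, a lectin that delivers glycoproteins to that ligase, differed by 0.07 and -0.09. The derlins, rhomboid-like membrane proteins of the ERAD channel, lay between -0.38 (DERL2) and 0.15 (DERL1) after leucine removal and between -0.46 (DERL3) and 0.32 (DERL1) after lysine removal. DERL3 is dim here, and its 2 kept probe sets disagreed (-0.46 and 0.83 after lysine removal). In all, 5 of 8 ERAD members lay above 0 on each array by their main probe sets. That is 62.5%, against 51.4% and 49.5% of all kept genes, and on 8 genes it is near those shares. Other kept probe sets of SEL1L and of DERL1 lay below 0 on each array.

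SDF2L1 and MANF, induced by ER stress in many cell types, were lower in both starved conditions. SDF2L1 is a partner of ER J proteins that helps keep clients soluble. Its single probe set read 1642 in complete medium, 968.6 without leucine and 770.3 without lysine, differences of -0.76 and -1.09. This probe set too is marked as shared, and without such probe sets SDF2L1 has no value and no member is 2-fold lower after lysine removal. MANF is a small ER-retained and secreted protein that binds the chaperone BiP. Its single probe set read 6748, 4402 and 4621.5, differences of -0.62 and -0.55. For both genes the fed array was the highest of the 3, the reverse of HERPUD1 and EDEM1.

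The ER J proteins, which stimulate the ATPase of BiP, were mixed. DNAJB9 (ERdj4) also helps to hold IRE1 inactive. Its main probe set read 569.8 in complete medium, 711.6 without leucine and 421.8 without lysine, so the leucine-deprived array was highest and the lysine-deprived one lowest. Its second kept probe set did not follow: it read 191.9, 97.5 and 124.0, lower on both starved arrays. DNAJB11 (ERdj3), a soluble co-chaperone, differed by -0.05 and -0.46, DNAJC3 (p58IPK), a co-chaperone and inhibitor of PERK, by 0.13 and 0.41, and DNAJC10, a J protein that also reduces disulfides, by 0.15 and 0.21. Probe sets of DNAJC3 and of DNAJC10 pointed both ways on each array.

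Of the large chaperones, HSPA5 and HYOU1 were close to their fed level on their main probe sets. HSPA5 encodes BiP, the ER HSP70 that also restrains the sensors, and is the standard marker of the response. Its main probe set read 19355 in complete medium, 16996 without leucine and 16330 without lysine, differences of -0.19 and -0.25. Both starved arrays were slightly under the fed one, by less than the SD between probe sets of a gene. That SD does not cover the spread between cultures. The dimmer HSPA5 probe set was lower as well (-0.85 and -0.08). HYOU1, an HSP110-type exchange factor for BiP, read 2130, 2256 and 2195, differences of 0.08 and 0.04.

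HSP90B1 (GRP94), the ER HSP90, separated the deprivations on its main probe set but not on its second. Its main probe set read 4073 in complete medium, 5794 without leucine and 3039 without lysine, differences of 0.51 and -0.42. The second read 1294, 1113 and 1045, differences of -0.22 and -0.31, so the probe sets gave the same sign after lysine removal and opposite signs after leucine removal, and their mean after leucine removal was 0.15. Both carry the platform's mark for possible cross-hybridisation. HSPA13, a microsomal HSP70 relative, was 0.53 and 0.50 higher on one probe set but -0.84 and -1.16 on the other.

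Calreticulin and calnexin, the lectin chaperones that hold monoglucosylated proteins, differed by -0.24 and -0.22 (CALR) and by 0.01 and -0.25 (CANX). A dimmer CALR probe set differed by 0.37 and -0.91. On their main probe sets, 6 of 7 disulfide enzymes lay under complete medium after leucine removal and 7 of 7 after lysine removal, none by 1.5-fold. Some of these were close to 0, and over all kept genes 51.4% and 49.5% lay above 0. PDIA3 (ERp57), the isomerase that works with the lectin chaperones, differed by 0.10 and -0.04. PDIA4 differed by -0.10 and -0.36, PDIA6 by -0.18 and -0.10 and P4HB, the classical protein disulfide isomerase, by -0.03 and -0.20. Dimmer probe sets differed: 1 of PDIA4 gave 0.07 and -0.65, and 1 of PDIA6 gave -0.19 and -0.63, both past 1.5-fold after lysine removal. Others lay above 0, P4HB at 0.34 after leucine removal and PDIA3 at 0.21 after lysine removal.

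ERO1A, the oxidase that recharges these isomerases, differed by -0.54 and -0.44, with its other probe sets between -0.14 and 0.36 over both comparisons. Its paralogue ERO1B was dim and differed by -0.26 and -0.02. CRELD2, an ER-stress-inducible disulfide isomerase-like protein, differed by -0.11 and -0.18. CRELD1 read 139.9, 127.8 and 17.8, the last of these below the floor, on a probe set that did not pass the level filter.

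XBP1, the transcription factor made by IRE1 splicing, was the highest of the regulators. Its main probe set read 1761 in complete medium, 2466 without leucine and 3222 without lysine, 1.40-fold and 1.83-fold higher. Both starved arrays were above the fed one, and the lysine-deprived array was the highest. No value here measures the spliced share of XBP1 mRNA. ERN1, the gene of IRE1, was dim on all 3 of its probe sets: the readings in complete, leucine-free and lysine-free medium were 94.5, 97.6 and 120.2 on the first, 74.7, 102.8 and 122.1 on the next, and 118.4, 15.5 and 121.9 on the last. These readings differ too much between probe sets to give ERN1 a direction after leucine removal.

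ATF6 read 553.1, 502.4 and 580.5 on its main probe set, differences of -0.14 and 0.07. Of its 3 other kept probe sets, 1 was higher on both starved arrays (105.0, 315.7 and 265.8) and the others were lower on both. ATF6B, its paralogue, differed by -0.10 and -0.37 on its main probe set. Its other kept probe sets gave -0.43 and -0.13 on one, and -1.35 and 0.48 on the other. WFS1, an ER membrane protein that restrains ATF6, differed by 0.02 and -0.24. In the translocation channel SEC61B, a small channel subunit, read 17100, 12268 and 13577, differences of -0.48 and -0.33. SERP1, a channel-associated stress protein, differed by 0.07 and -0.06 on its main probe set. Its other kept probe sets gave 0.36, 0.53 and -0.26 after lysine removal.

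**Figure D3:**
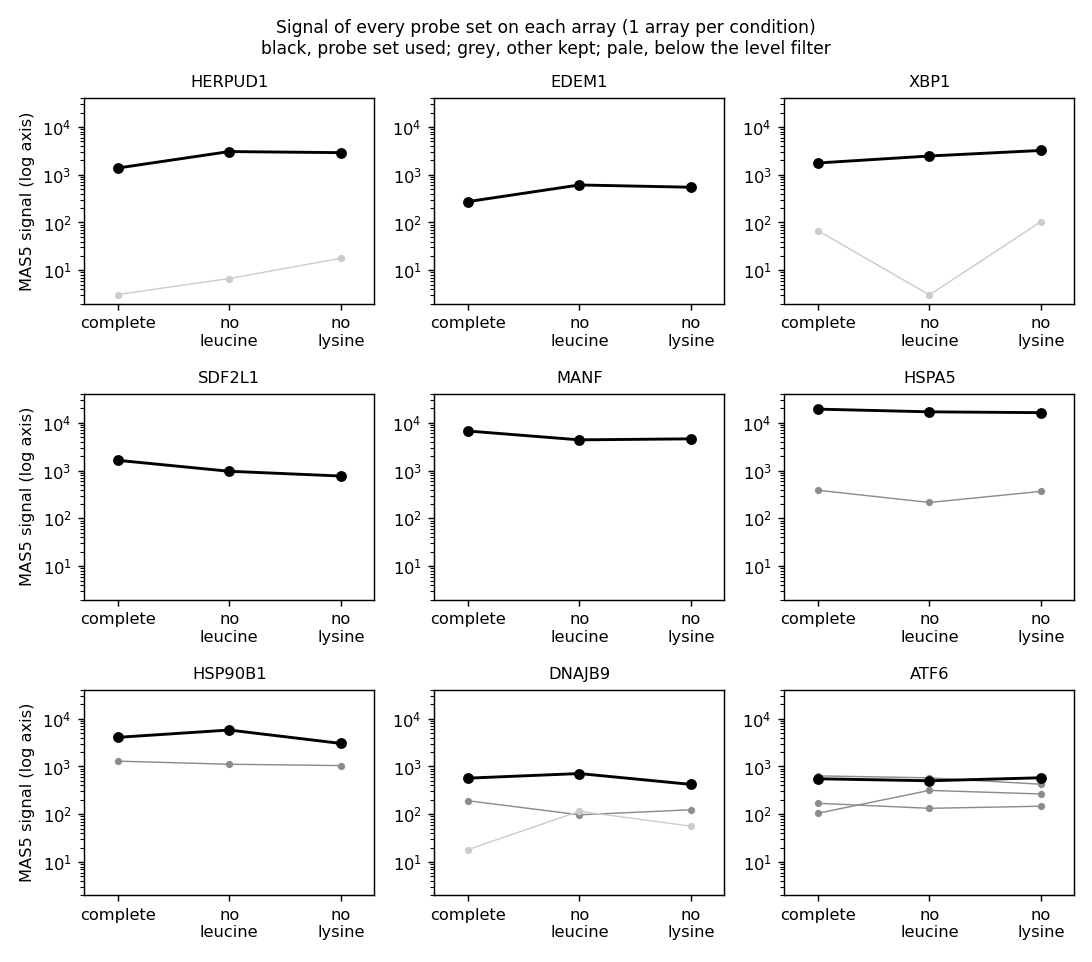
MAS5 signal (log axis) of every single-gene probe set of 9 members on the 3 arrays, 1 array per condition, with lines joining the readings of a probe set and the probe set used drawn in black. On the probe sets used, HERPUD1 and EDEM1 are higher on both starved arrays, SDF2L1 and MANF lower and HSPA5 nearly level. The probe sets of HSP90B1, DNAJB9 and ATF6 do not run in parallel.

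The leucine-deprived and lysine-deprived arrays were then set against each other, a comparison that does not use the complete-medium array. The median over members was 0.06 (all kept genes 0.02). No member differed by 2-fold, where 1.87% of kept genes were higher and 2.32% lower. At 1.5-fold HSP90B1 (0.93) and DNAJB9 (0.75) were higher without leucine, 6.06% of members against 7.42% of kept genes, and none was lower (8.11% of kept genes). The second probe set of HSP90B1 differed by 0.09 and that of DNAJB9 by -0.35. Without shared or cross-hybridising probe sets neither gene has a value, and CALR and PDIA4 are the 2 members 1.5-fold higher. XBP1 differed by -0.39, SDF2L1 by 0.33 and DNAJB11 by 0.41.

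Members with and without the stress elements overlapped in their differences. The 9 ERSE genes ran from -0.26 to 0.51 after leucine removal (median -0.11) and from -0.42 to 0.87 after lysine removal (median -0.18). The 18 kept members with a window but neither ERSE form ran from -0.62 to 1.16 (median -0.04) and from -0.55 to 1.0 (median -0.22). Those holding ERSE-II, shown in the first sequences, spanned -0.76 to 1.15 and -1.09 to 1.07. HERPUD1, the member with an AARE core beside ERSE-II, was the highest of these 3, and EDEM1 held none of the motifs searched in its window. No match says only that these letters are not in that window.

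Other genes of the secretory pathway also differed little. The counts below rest on few genes each and stand beside the shares of all kept genes past 1.5-fold. Those shares were 8.57% higher and 5.49% lower after leucine removal, and 12.1% higher and 8.72% lower after lysine removal. Of 21 further ERAD genes, 0 were 1.5-fold higher or lower after leucine removal among those above the floor on both arrays. After lysine removal VCP, the ATPase that pulls proteins out of the ER, was lower (-0.76). RNF5, a membrane ubiquitin ligase named here after its values were seen, was higher on 1 dim probe set that read 94.6 in complete medium, 25.1 without leucine (below the floor) and 236.3 without lysine. NGLY1, which strips glycans from extracted proteins, was 0.48 and 0.57 higher. Among 21 other folding factors 1 was 1.5-fold higher after leucine removal, DNAJB12 (0.59), and after lysine removal 3 were higher, DNAJB14 (1.03), DNAJB12 (0.77) and SIL1 (0.63), and SUMF2 was lower (-0.86). DNAJB12 and DNAJB14 are J proteins of the ER membrane and SIL1 is an exchange factor for BiP; other probe sets of DNAJB12 and DNAJB14 went down to -0.91 and -0.17 after lysine removal. The 22 translocation and signal peptidase genes, 21 N-glycan genes and 12 genes of the COPII coat, which buds vesicles from the ER, had 0 past 1.5-fold on either array, with medians of -0.15, -0.08 and -0.15 after leucine removal and -0.14, -0.19 and 0.09 after lysine removal. Of 16 other regulators, TXNIP (1.26 and 0.98), an arrestin-like gene also induced by PERK and IRE1 signalling, and CREB3L1 (0.82 and 0.52), an ATF6-like factor, were 1.5-fold higher after leucine removal, and TXNIP and NUCB2 (0.68) after lysine removal.

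The PERK and ATF4 arm stood in contrast. Its 14 genes had a median of 1.41 after leucine and 1.38 after lysine removal. On both arrays 14 of 14 lay above 0, against 51.4% and 49.5% of all kept genes. At least 2-fold higher were 9 and 10 of them, against 2.39% and 3.73% of kept genes. The list was drawn up with earlier results of these data known, so its high values are not an independent result. Whether PERK or GCN2 acted on these genes was not tested. TRIB3, a pseudokinase induced through ATF4 and CHOP, read 241.9 in complete medium, 3376 without leucine and 3258 without lysine. DDIT3, the gene of CHOP, read 319.0, 2830.5 and 2776. HERPUD1 and EDEM1, the highest ERAD members, lay below that list's median. The difference between the lists was not tested, since 1 array per group allows none. Cytosolic heat shock genes, the folding machinery outside the ER, had medians of -0.27 and -0.43 over 16 genes, with 11 and 14 below 0. Those above 0 made up 31.2% and 12.5%, against 51.4% and 49.5% of kept genes. At least 1.5-fold lower were 5 and 7 of the 16, against 5.49% and 8.72% of kept genes, and 0 were 1.5-fold higher. At 2-fold, 2 and 3 were lower, against 1.24% and 1.95%. This list too was drawn up with earlier results of these data known. DNAJA1, a cytosolic J protein, read 12912 in complete medium, 5943 without leucine and 4575 without lysine. Mitochondrial chaperones and proteases had medians of -0.06 and -0.07 over 12 genes. In that last list GRPEL2, an exchange factor for the mitochondrial HSP70, was higher (1.44 and 1.49), and its paralogue GRPEL1 was lower (-0.45 and -0.77, the latter past 1.5-fold).

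**Figure D4:**
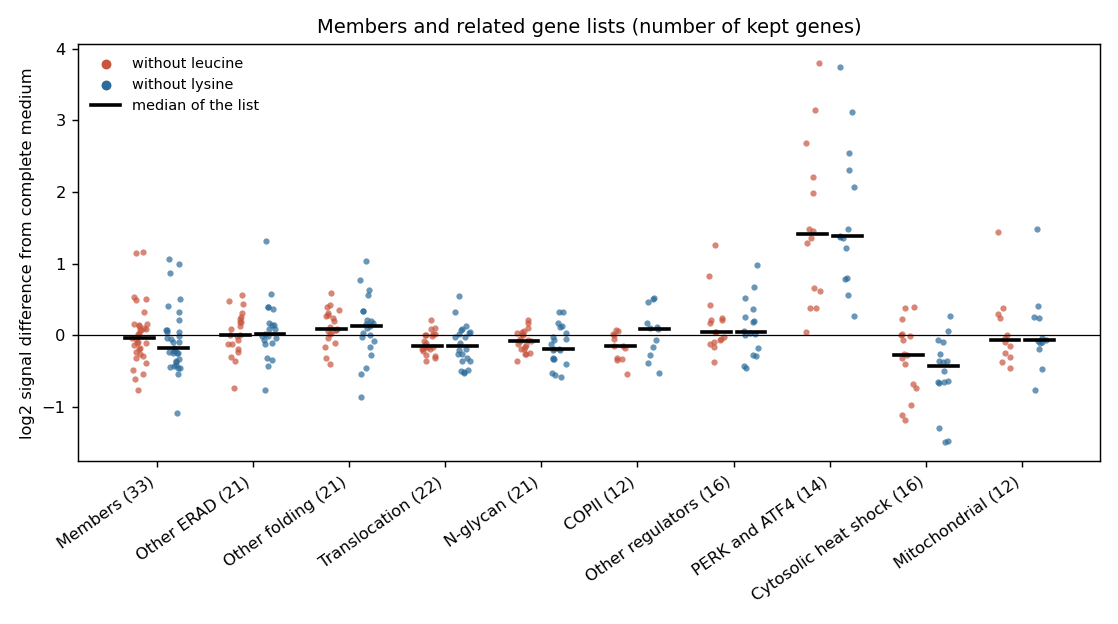
Log2 signal difference from complete medium for each kept gene of the members and of 9 related lists after leucine (red) and lysine removal (blue), 1 array per condition; black bars are medians, and points are spread sideways for legibility. The members centre at -0.03 and -0.18, the PERK and ATF4 genes at 1.41 and 1.38, and the cytosolic heat shock genes at -0.27 and -0.43.

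Markers of undifferentiated stem cells were present on every array. Of 12 such markers 11 had a single-gene probe set, and all 11 were above the floor on each array; their summed signal was 231591 in complete medium, 247667.5 without leucine and 242392.6 without lysine. Of 11 fibroblast and feeder markers between 7 and 9 were above the floor, and their levels were uneven. COL1A1 read 11551.8 in complete medium, 13186.5 without leucine and 18609.0 without lysine, and THY1, also a surface marker of stem cells, 12734.5, 8347.9 and 7503.3. COL1A2 (3312.0, 3589.8 and 2867.9) and COL6A3 (1375.9, 1502.6 and 1387.1) were also far above the floor. POSTN and TWIST2 read between 204.4 and 366.3, and COL3A1, DCN, LUM, FAP and PDGFRB at most 134.3. The summed signal of that list was 29804.6, 27342.2 and 31196.5, in the same order. Summed signals of the other lineages were 802.6, 512.5 and 769.9 for endoderm, 788.6, 1142.4 and 1343.9 for mesoderm, 4543.1, 4589.5 and 4027.3 for neuroectoderm, mostly NES, and 323.6, 451.6 and 390.7 for trophoblast. The mesoderm sum was higher on both starved arrays, and PDGFRA was its largest part (463.4, 647.8 and 571.0). TBXT, a mesoderm transcription factor, read 170.9, 201.7 and 453.8. HAND1 (63.1, 133.3 and 116.9) and MESP1 (13.8, 81.2 and 138.3) were dim and higher on both starved arrays. TBX6 (62.0, 69.9 and 44.8) was not, and MIXL1 (15.3, 8.48 and 19.1) was below the floor throughout. The part of these cell types in the results was not tested. Signal ratios between the 3′ and 5′ ends of ACTB mRNA, which grow as RNA or labelling falls short of the 5′ end, were 5.44, 7.55 and 11.2 on the complete-medium, leucine-deprived and lysine-deprived arrays, and those of GAPDH 1.08, 1.23 and 1.25. These ratios were highest on the lysine-deprived array, and the members' median was lower after lysine removal (-0.18) than after leucine removal (-0.03). The part of the ratios in the lower values after lysine removal was not tested.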

How the data were processed

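The authors deposited 1 signal intensity for each probe set, computed by MAS5, as given per the submitters' processing notes; its version and settings are not stated in the labels. After trimming 2% at either end each array had a mean of 500.1, so arrays share a scale and a difference in total mRNA is not seen. Labelled cRNA came from 100 ng of total RNA, per the labels' protocols. Genes were named from the platform annotation: 41091 probe sets name 1 gene, 1801 several and 11721 none here. Entrez identifiers of 35 members were found in RefSeq (GRCh38.p14) and 35 symbols were the same. Values under each array's 40th percentile were raised to it, and log2 was taken. A probe set stayed in if its mean log2 value across arrays was at least the median of single-gene probe sets (20546 stayed), and each gene took its kept probe set with the highest mean. Counts at 2- and 1.5-fold cover genes above the floor on both arrays. With 1 array per group no test was run and the number of arrays limits the precision. The members and the gene lists were chosen with earlier results of these data known. Signals on every array are given for members past 1.5-fold in any comparison and for ATF6, ERN1, XBP1, HSPA5 and HSP90B1 by rule; signals of further members are shown beside them. From each other list up to 4 genes with the largest mean absolute difference, above the floor on all arrays, could be named. Alternatives varied the floor, scaling, level filter and choice of probe set. The calculations were tested on simulated arrays. Unused sample columns numbered 0. Python 3.11.15, numpy 2.4.6, pandas 2.3.3 and matplotlib 3.10.9 were used.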

Additional observations from a re-analysis of the deposited data

Results flagged for a closer look

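Among members and the genes named from other lists, those below were chosen because the array without leucine lay on one side of complete medium and the array without lysine on the other, at least 1.5-fold apart. List genes that the naming rule left out were not searched, and at least HSPB8, a cytosolic heat shock gene, also qualifies (647.6, 846.6 and 501.4, 0.76 apart). With 1 array per condition the difference was not tested. HSP90B1 was 0.93 higher without leucine than without lysine (0.51 and -0.42 against complete medium), and its second probe set gave 0.09. DNAJB9 was 0.75 higher (0.32 and -0.43), and its second kept probe set gave -0.35. MOGS, the glucosidase that trims the first glucose from N-glycans, was 0.77 higher (0.22 and -0.55, 1 kept probe set). MCFD2, a cargo receptor subunit, differed by -0.67 (-0.35 and 0.32), with its other probe set at 0.42. SEC24D, a COPII cargo adaptor, differed by -0.83 (-0.33 and 0.50, 1 kept probe set). CLPX, a mitochondrial unfoldase, differed by -0.66 (-0.25 and 0.41), with its other probe set at -0.54.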

How the results depend on the processing

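The 3 medians over members moved by at most 0.1 under all 9 alternatives, between -0.08 and 0.01 after leucine removal, -0.18 and -0.11 after lysine removal and -0.04 and 0.08 between the deprivations, so the first and the last changed sign around 0. HERPUD1 stayed between 1.10 and 1.15 after leucine and 1.05 and 1.07 after lysine removal under the 8 alternatives that keep its probe set, and EDEM1 between 1.07 and 1.16 and between 0.92 and 1.01 under all 9. Each gene has 1 kept probe set above the floors, so the floor, level filter and averaging settings could not move these values. The scaling and the added 32 alone could, so the narrow ranges say little about stability. Of 108 recomputed counts of members, 95 stayed within 1.5 times. That rule also passes counts that stayed at 0 and counts whose genes were exchanged, so it is a loose check. Without probe sets marked as shared or cross-hybridising 28 members remained, HERPUD1, SDF2L1, HSP90B1 and DNAJB9 not among them. The 2-fold higher count was then 1 (EDEM1) after either removal and 1 (CALR) between the deprivations, and the 2-fold lower count after lysine removal was 0. At 1.5-fold, 1 was higher (EDEM1) and 1 lower (MANF) after leucine removal and 2 lower (CALR and PDIA4) after lysine removal. Between the deprivations 2 were higher as before, but CALR and PDIA4 in place of HSP90B1 and DNAJB9. EDEM1 was at the 2-fold edge after lysine removal, and that count fell to 1 with median centring and with log2(value + 32) without a floor. Quantile normalization gave 2 members 1.5-fold lower after lysine removal (SDF2L1 and DERL3), and the mean of the kept probe sets 2 (SDF2L1 and SEL1L). That mean also gave 3 lower after leucine removal, with ATF6B joining SDF2L1 and MANF. Between the deprivations it gave 1 higher (SEL1L) and 1 lower (ATF6B). It moved DNAJB9 from 0.32 to -0.33 after leucine removal and from 0.75 to 0.20 between the deprivations. The cause of these changes was not tested beyond what each alternative leaves out. No paired analysis was possible because each condition has 1 array, and no replicate could be left out. Dim genes such as ERN1, CRELD1, ERO1B and DERL3 are the least certain.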

Other observations

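Some probe sets of members under the level filter differed more than the ones reported. The dimmest DNAJB9 probe set read 18.1 in complete medium, 115.6 without leucine and 56.3 without lysine, of which the leucine-deprived reading alone was above its floor. The dimmest DERL1 probe set read 54.9, 103.0 and 104.8, just above the floor in complete medium and higher on both starved arrays, while its 3 kept probe sets ran from -0.18 to 0.49 after leucine removal. Of 22 members with several kept probe sets, all kept probe sets of 5 had the same sign after leucine removal (ATF6B, HSPA5, PDIA3, PDIA6 and WFS1) and those of 9 after lysine removal. The genes that stood out most, HERPUD1, EDEM1, SDF2L1, MANF and XBP1, each rest on 1 kept probe set.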
